A study of Mus musculus with 4 samples.

Results

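The 10 genes described here belong to 2 programs of skeletal development. *Runx2*, *Sp7*, *Alpl*, *Ibsp* and *Bglap* belong to the bone-forming osteoblast, and *Sox9*, *Sox5*, *Sox6*, *Acan* and *Comp* to cartilage. They were taken by symbol from the 24391 genes of the count table, by a rule that names them and uses no value. All 10 were found.

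RNA-seq was performed on primary mouse embryonic fibroblasts (MEFs), cells grown from E13.5 embryos and arrested here in quiescence, in 2 WT and 2 *Phf2* KO libraries. All 4 libraries carry the genotype Phf2 flox/flox, ERCre/+. The WT cells therefore hold the same floxed alleles and the same CreERT2, a Cre recombinase made from the Rosa26 locus that works only with 4-hydroxytamoxifen (4-OHT). Tamoxifen is named as a treatment for the *Phf2* KO libraries alone. The protocol gives 0.5 µM 4-OHT for 7 days in Opti-MEM with 2% charcoal-treated FBS, and its wording is the same for all 4 libraries. Loss of Phf2, Cre activity and 4-OHT itself cannot be told apart in this design.

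Runx2, bound to its partner subunit Cbfb, is the transcription factor without which no osteoblasts form, and Sp7 (osterix) acts downstream of it. Alpl (tissue-nonspecific alkaline phosphatase), Ibsp (bone sialoprotein) and Bglap (osteocalcin) are products of the maturing osteoblast, and *Bglap* and *Ibsp* are classical Runx2 targets. Sox9 is the transcription factor without which no chondrocytes form. Sox5 and Sox6 work beside it, and *Acan* (aggrecan) and *Col2a1* are among its targets. Comp is a pentameric thrombospondin of cartilage and tendon matrix. Phf2 is a Jumonji-C protein that reads H3K4me3, and it and its partner Arid5b have been linked to both Runx2 and Sox9. The comparison asks how far the transcripts of these programs differ between MEFs with and without *Phf2*.

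Stretches of the osteocalcin locus and of the *Runx2* promoter show which reads and which motifs are at issue. *Bglap* and *Bglap2* are near-identical osteocalcin genes, and short reads from them are hard to assign to either. The first 90 of the 288 coding bases on NCBIM37 (mm9) are printed, with the 3 positions at which the genes differ in capitals.
Bglap: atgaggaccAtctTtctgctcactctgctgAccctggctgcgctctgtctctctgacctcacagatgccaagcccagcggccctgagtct
Bglap2: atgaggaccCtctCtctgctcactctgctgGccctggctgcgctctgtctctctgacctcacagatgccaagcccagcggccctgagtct
The coding sequence of *Bglap* is identical at 98.6% of bases to that of *Bglap2*. Of the 391 windows of 50 bases in the *Bglap* transcript, 292 (74.7%) also occur in the *Bglap2* transcript. For the other 9 members the share found in any other gene was between 0% and 0.0732%. The counts of *Bglap* are therefore uncertain between the pair.

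The bases upstream of *Bglap*, as the textbook Runx2 target, and of *Runx2* itself are printed from RefSeq on GRCm38.p6, 5′ to 3′ on the strand of the gene and ending at the base before the transcript start. The core word of RUNX factors, TGTGGT or its reverse complement ACCACA, is in capitals.
Runx2, chr17:44814628-44814877, minus strand: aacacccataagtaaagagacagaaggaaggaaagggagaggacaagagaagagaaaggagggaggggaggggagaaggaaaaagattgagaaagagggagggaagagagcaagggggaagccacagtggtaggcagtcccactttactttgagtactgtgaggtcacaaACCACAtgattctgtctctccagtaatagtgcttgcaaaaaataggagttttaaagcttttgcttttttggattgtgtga
Bglap, chr3:88384467-88384716, minus strand: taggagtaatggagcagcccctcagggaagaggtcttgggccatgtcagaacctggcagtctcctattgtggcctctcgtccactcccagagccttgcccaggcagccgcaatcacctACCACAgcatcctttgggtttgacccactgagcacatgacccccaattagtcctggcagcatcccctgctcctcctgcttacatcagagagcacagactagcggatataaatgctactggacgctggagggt
The word begins 80 bases before the start of *Runx2*, with 2 more copies among the 50 bases after the start, and 132 bases before the start of *Bglap*. Of 32851 windows of this kind, which reach 250 bases upstream and 50 downstream, 16.8% hold it. Windows were found for 7 of the 10 members. *Alpl*, *Sox5* and *Acan* held neither this word nor the SOX word AACAAT or ATTGTT, which 10.7% of windows hold. *Ibsp*, the other classical Runx2 target named above, held no RUNX word and the SOX word 1 time. Of 6 windows of *Sox6*, 2 held the RUNX word, and 1 of these also held the SOX word 2 times. These are matches of letters and were not tested as binding sites.

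The libraries held between 21094743 and 26094268 counts, and 3 counts, the limit that a count of 0 allows, came to between 0.116 and 0.145 normalized CPM (counts scaled to the library total with TMM factors). Counts of *Phf2* were 3244 and 3680 in WT against 1454 and 2158 in *Phf2* KO, that is 52.1% of WT within replicate number 1 and 63.3% within number 2 after scaling. The counts cover whole genes, so transcripts that lack the floxed exons are not separated from full ones. All 12 fibroblast markers were detected. Libraries of replicate number 1 stood apart from those of number 2. The 12 macrophage markers summed to 3452 CPM (WT) and 3965 CPM (*Phf2* KO) in number 1, against 754 and 1200 CPM in number 2. Within each number the macrophage sum was higher in *Phf2* KO than in WT. Of the 12 macrophage markers, 9 had log2 fold changes above 0 and 3 below, and 7 were higher within both numbers. The fibroblast sum was lower in both *Phf2* KO libraries (71599 and 69603 CPM) than in both WT libraries (76383 and 82123 CPM). A few abundant matrix genes such as *Col1a1* made up most of this sum. By gene, 8 of the 12 fibroblast markers had log2 fold changes below 0 and 4 above. The part of these cell markers in the differences between the groups was not tested. Osteoclast markers summed to 309 and 285 CPM in number 1 and 170 and 169 CPM in number 2, with *Calcr* and *Ocstamp* at 0. Muscle, endothelial, adipocyte and epithelial markers summed to at most 66.3 CPM in any library.

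Among the osteoblast members, *Runx2* was well expressed and the other 4 had counts near the detection limit. *Runx2* (mm9 chr17:44632936-44951746, minus strand) had counts of 553 and 741 in WT against 614 and 740 in *Phf2* KO. These are 22.9 and 28.5 normalized CPM in WT (25.7 ± 3.97, SD, n = 2) and 29.6 and 30.8 in *Phf2* KO (30.2 ± 0.810, SD, n = 2). Both *Phf2* KO libraries thus lay above both WT libraries, with WT replicate 1 the lowest of the 4. Across all genes tested, 15.5% had *Phf2* KO libraries that were higher in this way and did not overlap WT. The log2 fold change was 0.23 (SE 0.14, 95% interval −0.14 to 0.60), which did not pass the threshold of 0.1 (edgeR quasi-likelihood test, unadjusted p = 0.168, adjusted p = 0.999). Within replicate number 1 the log2 ratio of *Phf2* KO to WT was 0.37 (95% counting interval 0.20 to 0.54), and within number 2 it was 0.11 (−0.04 to 0.26). Both ratios were above 0, as they were for 32.5% of all genes tested. Without WT replicate 1 the log2 fold change was 0.09. Exons of *Runx2* overlap those of the transcript *Gm10497* on the opposite strand, and the study does not state whether featureCounts used strand. Intervals on counts cover counting error only, and in bulk RNA fewer cells of a type cannot be told apart from less RNA per cell.

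*Sp7* (chr15:102187040-102197285, minus strand), which stands between Runx2 and the mature osteoblast, was counted 1 time in all 4 libraries together (exact 95% Poisson interval 0.0253 to 5.57). That read came from WT replicate 2. *Alpl* (chr4:137297648-137352299, minus strand) had counts of 3 and 6 in WT against 2 and 5 in *Phf2* KO. Its log2 ratios, −0.37 and −0.15 within replicate numbers 1 and 2, had counting intervals of −3.95 to 2.76 and −2.20 to 1.82. *Ibsp* (chr5:104728190-104740488, plus strand) was counted 3 times in *Phf2* KO replicate 2 and 0 times in each of the other 3 libraries. *Bglap* (chr3:88187423-88188386, minus strand) had counts of 0 and 6 in WT against 3 and 10 in *Phf2* KO. Its near copy *Bglap2* was as low, with counts of 0 and 2 in WT and the same in *Phf2* KO.

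None of these 4 genes had enough reads to enter the test, and a difference between the groups was not detectable at this depth. Their summed counts were 3 and 13 in WT against 5 and 18 in *Phf2* KO. That is 0.542% and 1.75% of the *Runx2* count in WT against 0.814% and 2.43% in *Phf2* KO. In both groups the higher value belonged to replicate number 2, where the macrophage sum was lower and *Col2a1* higher. The part of those differences in these counts was not tested. In all 4 libraries, *Runx2* RNA was thus present, while the counts of *Sp7*, *Alpl*, *Ibsp* and *Bglap* were close to 0. For *Bglap*, whose reads are hard to assign between it and *Bglap2*, a low count need not mean little RNA. Other genes that Runx2 can activate were abundant, namely *Spp1* (osteopontin), at 843 and 222 CPM in WT against 865 and 299 CPM in *Phf2* KO, and the collagen gene *Col1a1*, at 21064 to 27581 CPM. Fibroblasts make *Col1a1* and macrophages make *Spp1* as well.

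**Figure D1:**
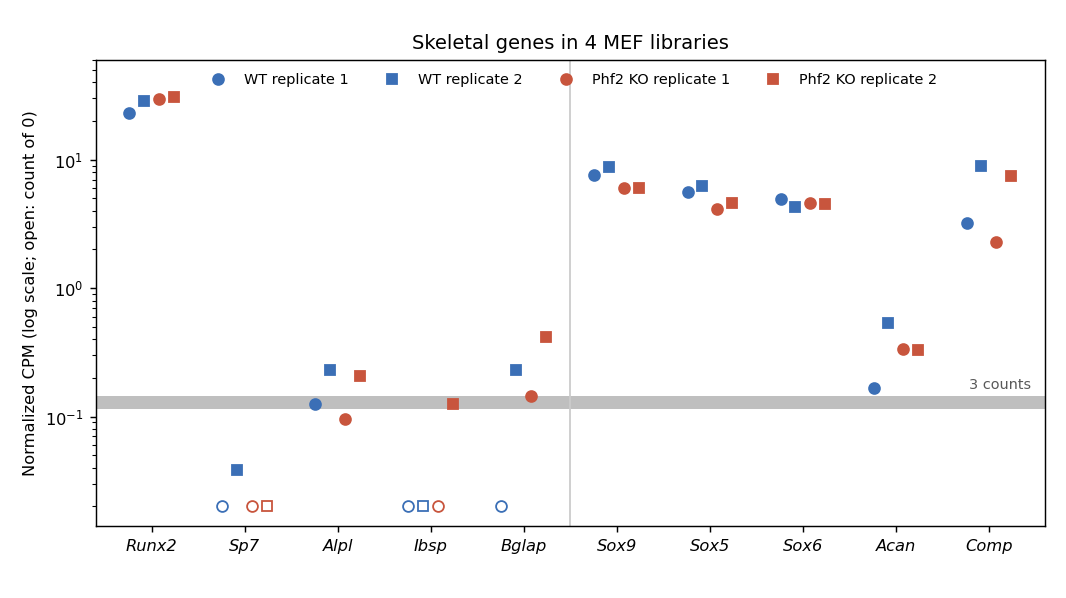
Normalized CPM (log scale) of the 10 members in the 4 libraries, with 1 point per library, circles for replicate 1 and squares for replicate 2, blue for WT and red for *Phf2* KO. Open points at the bottom mark a count of 0, and the grey band marks 3 counts (0.116 to 0.145 CPM). *Runx2* lies between 22.9 and 30.8 CPM, *Sox9*, *Sox5*, *Sox6* and *Comp* between 2.27 and 8.94 CPM, and the other 5 members between 0 and 0.539 CPM.

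Among the cartilage members, *Sox9* and *Sox5* were lower in both *Phf2* KO libraries than in both WT libraries, and *Sox6* was not. *Sox9* (chr11:112643538-112649074, plus strand) had counts of 185 and 226 in WT against 125 and 144 in *Phf2* KO. The normalized values were 7.67 and 8.71 CPM in WT (8.19 ± 0.731, SD, n = 2) and 6.03 and 5.99 CPM in *Phf2* KO (6.01 ± 0.0306, SD, n = 2). The groups did not overlap, and the *Phf2* KO mean was 73.4% of the WT mean. Of all genes tested, 18.0% were lower in *Phf2* KO without overlap. The log2 fold change of *Sox9* was −0.45 (SE 0.16, 95% interval −0.88 to −0.01), that is 0.544 to 0.990 times WT (edgeR quasi-likelihood test, unadjusted p = 0.0451, adjusted p = 0.999). An unadjusted p under 0.05 was reached by 2.67% of genes in this direction and 1.54% in the other, and *Sox9* was the only one of the 5 members tested that reached it. Within the replicate numbers the log2 ratios were −0.35 (95% counting interval −0.69 to −0.01) and −0.54 (−0.85 to −0.23).

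*Sox5* (chr6:143776945-144730497, minus strand), whose protein binds DNA beside Sox9 but carries no transactivation domain of its own, had counts of 136 and 162 in WT against 85 and 111 in *Phf2* KO. Normalized, these were 5.64 and 6.24 CPM in WT (5.94 ± 0.425, SD, n = 2) and 4.10 and 4.61 CPM in *Phf2* KO (4.36 ± 0.364, SD, n = 2). Again all *Phf2* KO values were below all WT values. The log2 fold change was −0.45 (SE 0.18, 95% interval −0.93 to 0.04), past neither threshold (edgeR quasi-likelihood test, unadjusted p = 0.0637, adjusted p = 0.999). The log2 ratios were −0.46 (95% counting interval −0.87 to −0.06) within number 1 and −0.44 (−0.80 to −0.08) within number 2. Exons of *Sox5* overlap those of *4933415D12Rik* on the opposite strand.

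*Sox6* (chr7:122614858-123182258, minus strand), which acts redundantly with *Sox5* in chondrocytes, had counts of 119 and 111 in WT against 95 and 109 in *Phf2* KO. At 4.93 and 4.28 CPM in WT against 4.58 and 4.53 CPM in *Phf2* KO, the groups overlapped. The log2 fold change was −0.01 (SE 0.19, 95% interval −0.51 to 0.48; edgeR quasi-likelihood test, adjusted p = 0.999). The log2 ratios were −0.11 (−0.51 to 0.30) within number 1 and 0.08 (−0.31 to 0.48) within number 2. The interval of *Sox6* includes the log2 fold changes of *Sox9* and *Sox5*, and a difference between the 3 genes was not tested.

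*Acan* (chr7:86198369-86259985, plus strand), the main proteoglycan of cartilage, had counts of 4 and 14 in WT against 7 and 8 in *Phf2* KO and did not enter the test. Its log2 ratio was 1.03 (−0.95 to 3.25) within number 1 and −0.70 (−2.16 to 0.66) within number 2, so the counting intervals exclude neither direction. *Comp* (chr8:72897447-72905964, plus strand) had counts of 77 and 232 in WT against 47 and 181 in *Phf2* KO, or 3.19 and 8.94 CPM against 2.27 and 7.53 CPM. For this gene the replicate number separated the libraries and the genotype did not. Replicate 2 held 2.80 times as much *Comp* as replicate 1 among the WT libraries and 3.32 times as much among the *Phf2* KO libraries. The log2 fold change was −0.30 (SE 0.75, 95% interval −2.28 to 1.67; edgeR quasi-likelihood test, adjusted p = 0.999), the widest interval of the 5 members tested. Within the replicate numbers the log2 ratios were −0.49 (−1.05 to 0.05) and −0.25 (−0.54 to 0.04). The macrophage sum moved with the replicate number in the opposite direction, as given above, and its part in the *Comp* counts was not tested.

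In all, 5 of the 10 members entered the test and 0 of these 5 passed the adjusted threshold, which 0.00732% of the 13668 genes tested passed. That was 1 gene, the Wnt antagonist *Dkk2*, named here after its value was seen (977 and 1137 counts in WT, 131 and 162 in *Phf2* KO). DESeq2 also called 0 members, and of all the skeletal genes listed here it called *Phf2* alone. *Sox9* and *Sox5* (2 of the 5 members tested) were lower in *Phf2* KO without overlap. *Sox9*, *Sox5* and *Comp* (3 of 5) were lower within both replicate numbers, as were 30.2% of all genes tested. With 5 members, these shares cannot be set apart from those over all genes. When the replicate number was added to the fit as a block, *Sox9* was the only member called (log2 fold change −0.45, adjusted p = 0.0650). That fit called 5.2% of genes lower and 5.77% higher. *Runx2* and *Sox5* stood at adjusted p = 0.143 and 0.122 there. The labels give the shared numbers but no shared animal.

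**Figure D2:**
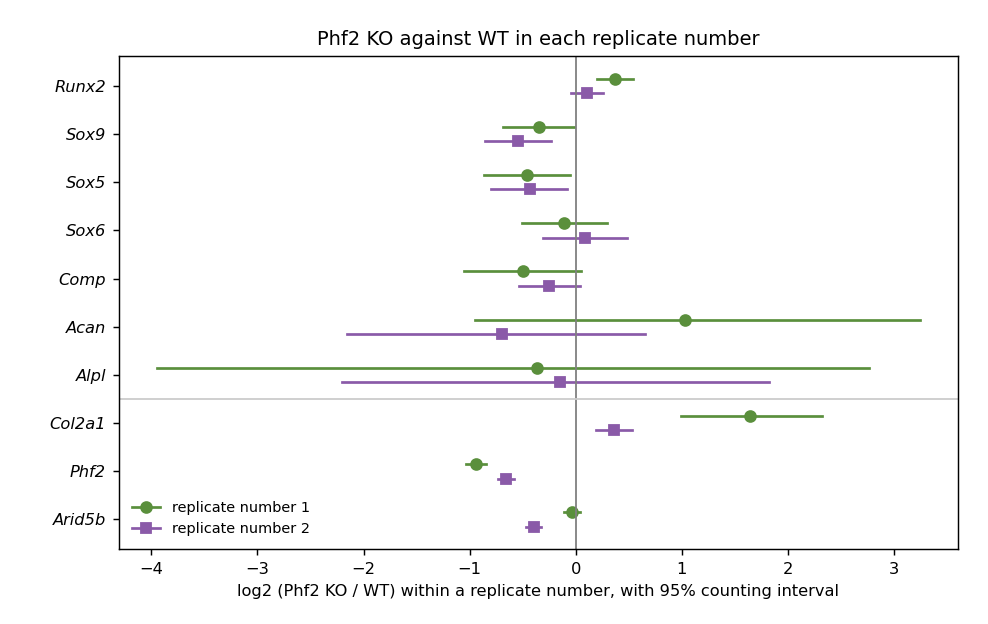
Log2 ratio of *Phf2* KO to WT within replicate number 1 (green circles) and 2 (purple squares), with 95% counting intervals, for the members with a count in every library and, below the line, for *Col2a1*, *Phf2* and *Arid5b*. *Sox9* and *Sox5* lie below 0 in both numbers, *Runx2* lies above 0 in both with an interval that reaches 0 in number 2, and the intervals of *Acan* and *Alpl* span several log2 units.

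Within a library, the level of *Sox9* relative to that of *Runx2* was lower in both *Phf2* KO libraries than in both WT libraries. *Sox9* stood at 33.5% and 30.5% of the normalized CPM of *Runx2* in WT, against 20.4% and 19.5% in *Phf2* KO. The WT and *Phf2* KO shares did not overlap. This had to follow, since *Sox9* was lower and *Runx2* higher in both *Phf2* KO libraries than in both WT libraries. It adds nothing to those values. This ratio does not depend on the scaling between libraries. It was formed after the values were seen and was not tested.

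Per length of annotated exon, *Runx2* was the highest member, at a mean over the 4 libraries of 3.16 CPM per kb (range 2.60 to 3.48). *Comp* followed at 2.26 CPM per kb (0.935 to 3.69) and *Sox9* at 1.72 CPM per kb (1.45 to 2.11). *Sox6* stood at 0.518 CPM per kb (0.483 to 0.557), *Sox5* at 0.358 (0.285 to 0.434) and *Bglap* at 0.320 (0 to 0.673). *Acan* (0.0468 CPM per kb), *Alpl* (0.0409), *Ibsp* (0.0151) and *Sp7* (0.00316) were lowest. Between neighbours in this order, the ranges of *Sox9* and *Sox6* and those of *Sox6* and *Sox5* did not overlap, and all other neighbours overlapped. Isoform use could shift the length of each gene and was not measured.

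The relatives of the members place these levels. *Cbfb*, which encodes the partner subunit of all RUNX proteins, ranged from 14.9 to 17.7 CPM per kb, with counts of 1161 and 1130 in WT against 1068 and 1042 in *Phf2* KO (log2 fold change 0.05, SE 0.13). *Runx1*, the blood-forming RUNX factor, stood at 2.15 CPM per kb (1.84 to 2.64), a range that overlapped that of *Runx2*. Its counts were 427 and 372 in WT against 427 and 345 in *Phf2* KO. *Runx3* had between 16 and 36 counts per library. Among the SOXE genes, *Sox10*, known from the neural crest, was above *Sox9* at 7.28 CPM per kb (6.49 to 8.01), a range that did not overlap that of *Sox9*. *Sox10* had 524 and 457 counts in WT against 441 and 443 in *Phf2* KO, with a log2 fold change of 0.01 (SE 0.16). *Sox8* had between 10 and 13 counts per library.

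*Col2a1*, the fibrillar collagen of cartilage and a direct Sox9 target, had counts of 28 and 542 in WT against 75 and 645 in *Phf2* KO. The log2 difference of replicate 2 over replicate 1 was 4.17 in WT and 2.89 in *Phf2* KO, larger than for any other member or skeletal gene tested. Without the replicate number in the fit, the genotype difference was 0.47 on the log2 scale (SE 1.46). Within the replicate numbers its log2 ratios were 1.64 (95% counting interval 1.00 to 2.32) and 0.36 (0.19 to 0.53), and with the block the log2 fold change was 0.62 (SE 0.15, edgeR quasi-likelihood test, adjusted p = 0.00084). *Sox9* itself differed between the replicates by 0.18 (WT) and −0.01 (*Phf2* KO) on the log2 scale. *Sox9* therefore did not follow *Col2a1* and *Comp* from replicate to replicate.

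**Figure D3:**
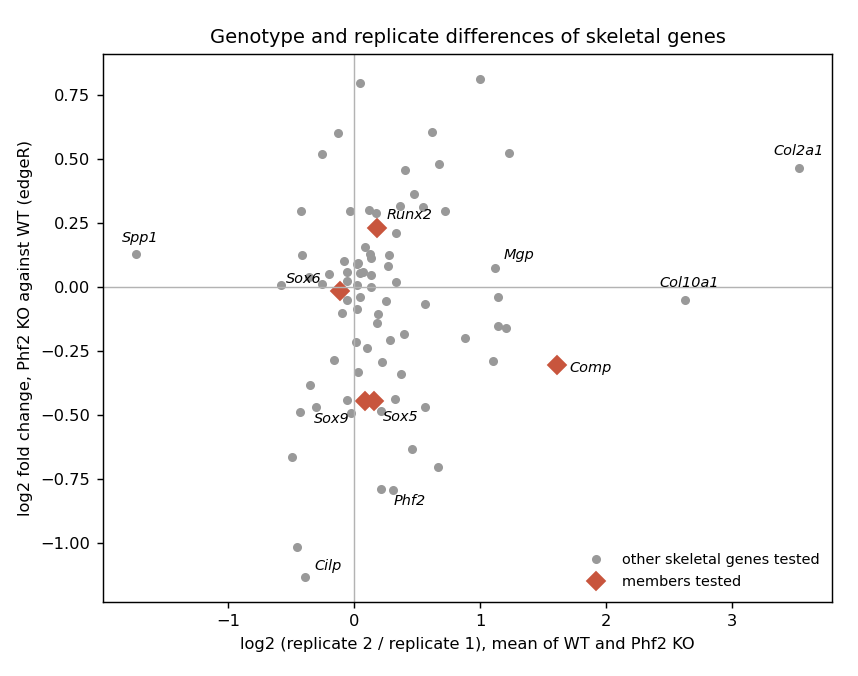
Log2 fold change of *Phf2* KO against WT (vertical axis) against the mean log2 difference of replicate 2 over replicate 1 (horizontal axis) for the skeletal genes tested, with the 5 members tested as red diamonds. *Sox9* and *Sox5* lie at −0.45 vertically and near 0 horizontally, whereas *Comp* lies to the right, on the side of *Col2a1* and *Col10a1*.

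Around *Phf2*, its partner *Arid5b* had counts of 3156 and 3891 in WT against 2648 and 2742 in *Phf2* KO. The log2 fold change was −0.22 (SE 0.11), with log2 ratios of −0.03 and −0.39 within replicate numbers 1 and 2. The paralogs *Phf8* (0.10, SE 0.11) and *Kdm7a* (0.16, SE 0.17) had log2 fold changes above 0, and neither passed the threshold. *Phf2* itself had a log2 fold change of −0.79 (SE 0.14) and did not pass the adjusted threshold either (edgeR quasi-likelihood test, adjusted p = 0.999).

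Of 18 genes for partners, relatives and regulators of Runx2, 16 were tested and 0 passed, nor did any have an unadjusted p under 0.05 (edgeR quasi-likelihood test). The median log2 fold change was 0.05, with 12 genes above 0 and 4 below, against a median of 0.01 and 7003 above and 6665 below over all genes tested. *Hey1*, a Notch target that represses Runx2, had the largest ratio of the same sign in both numbers among genes that averaged 50 counts or more (0.36, SE 0.30). *Zfp521*, a repressor of Runx2 activity, was at −0.11 (SE 0.12), and *Smurf1*, a ubiquitin ligase that acts on Runx2, was at 0.05 (SE 0.07). *Atf4*, the factor that works with Runx2 on the osteocalcin promoter, had the highest level of the list at 239 CPM per kb and a log2 fold change of −0.05 (SE 0.09).

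Of 25 genes of bone matrix, mineralization and osteoblast signalling, 19 were tested and 0 passed, with a median of 0.05, 11 above 0 and 8 below. At an unadjusted p under 0.05 the list held 1 gene, *Ifitm5*, which encodes an osteoblast membrane protein. It had counts of 34 and 40 in WT against 54 and 61 in *Phf2* KO (log2 fold change 0.80, SE 0.24; edgeR quasi-likelihood test, unadjusted p = 0.0233). *Smpd3*, a sphingomyelinase needed for mineralization, was at −0.44 (SE 0.22). The phosphate transporter gene *Slc20a1* was at 0.29 (SE 0.11), and *Pdpn*, a marker of early osteocytes and of lymphatic endothelium, was at −0.38 (SE 0.18). *Sparc* (osteonectin), abundant in fibroblasts too, was the highest of the list at 3656 CPM per kb (0.05, SE 0.14). The osteocyte genes *Dmp1*, *Phex* and *Sost* had at most 14 counts in a library and *Mepe* had 0 in all 4.

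Of 15 relatives, partners and signals of Sox9, 9 were tested and 0 passed, with a median of 0.06, 7 above 0 and 2 below. Of these, *Arid5a* alone had an unadjusted p under 0.05. Its product is a partner of Sox9, and it had counts of 324 and 291 in WT against 397 and 389 in *Phf2* KO. All *Phf2* KO values lay above all WT values, with log2 ratios of 0.51 and 0.53 and a log2 fold change of 0.52 (SE 0.17; edgeR quasi-likelihood test, unadjusted p = 0.0290). *Zfp219*, another partner of Sox9 and the highest of the list at 33.4 CPM per kb, was at 0.21 (SE 0.18). *Trps1*, a GATA-type factor of the growth plate, was at −0.14 (SE 0.21).

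Of 25 genes of cartilage matrix, 18 were tested and 0 passed, with a median of −0.06, 7 above 0 and 11 below. *Matn2*, which encodes a matrilin found in many connective tissues, had counts of 740 and 901 in WT against 332 and 520 in *Phf2* KO. Its log2 ratios were −0.94 and −0.68, and its log2 fold change was −0.80 (SE 0.18; edgeR quasi-likelihood test, unadjusted p = 0.00870), the only one of the list under 0.05. *Chst11*, a chondroitin sulfotransferase gene, was at −0.49 (SE 0.22). *Fmod* (fibromodulin) had the highest level, 257 CPM per kb, and a log2 fold change of −0.05 (SE 0.15).

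The families of *Comp* and *Acan* and the tendon genes were smaller lists. Of 7 tendon genes 6 were tested, all with log2 fold changes below 0 and a median of −0.39. The largest were *Col14a1* (−0.67, SE 0.24), a fibril-associated collagen, and *Mkx* (−0.63, SE 0.25), a tendon transcription factor. *Tnc* (tenascin C), the highest at 367 CPM per kb, was at −0.28 (SE 0.13). *Col14a1* had an unadjusted p of 0.0457 and none of the 6 passed the adjusted threshold (edgeR quasi-likelihood test). The 4 thrombospondin genes had a median of −0.14. *Thbs3*, whose exons overlap those of *Mtx1* on the opposite strand, was at −0.48 (SE 0.12, unadjusted p = 0.0137), *Thbs2* at 0.30 (SE 0.12), *Thbs1* at 0.06 (SE 0.13) and *Thbs4*, also in the tendon list, at −0.33 (SE 0.43). The 3 lecticans had a median of −0.47, with *Vcan* (versican), the highest at 4.76 CPM per kb, at −0.47 (SE 0.18, unadjusted p = 0.0504).

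With the replicate number as an added block, genes of these lists did pass. The block called 3 genes higher and 4 lower of the 18 cartilage matrix genes, among them *Matn2*, *Chst11* and *Col2a1*. *Col10a1* was among the higher (log2 fold change 0.38), though its log2 ratios were 1.62 and −0.34 within replicate numbers 1 and 2. A call with the block thus did not require the same direction in both numbers. The block called 4 higher and 1 lower of the 19 bone genes, with *Ifitm5* among the higher. Of the 9 Sox9 relatives and partners it called *Arid5a* and *Zfp219* higher, and of the 6 tendon genes it called *Col14a1*, *Mkx* and *Tnmd* lower. Among the thrombospondins it called *Thbs2* higher and *Thbs3* lower, and among the lecticans *Vcan* lower. It called 0 of the 16 Runx2 partners and regulators (edgeR quasi-likelihood test with the block, adjusted p under 0.1). Counting *Phf2* and *Arid5b*, both lower, this made 10 higher and 12 lower of the 78 genes of the lists that were tested, beside the 5.77% and 5.2% of all genes given above.

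**Figure D4:**
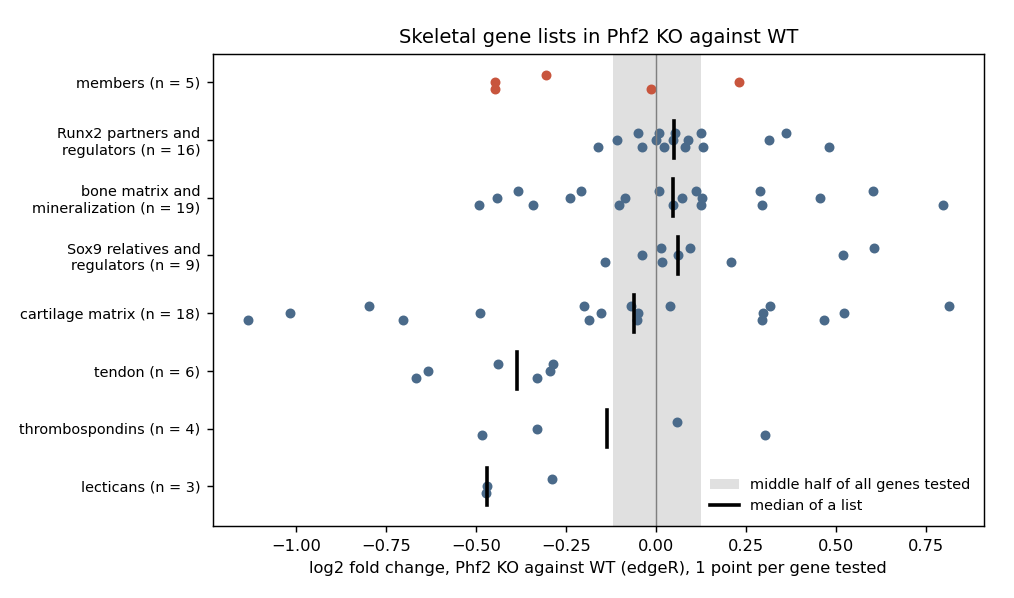
Log2 fold change of *Phf2* KO against WT, with 1 point per gene tested, for the members and 7 lists of skeletal genes, and a black bar at the median of each list other than the members. The grey band holds the middle 50% of all genes tested. The medians of the Runx2, bone, Sox9 and cartilage lists (0.05, 0.05, 0.06 and −0.06) lie inside the band, and those of the tendon, thrombospondin and lectican lists (−0.39, −0.14 and −0.47) lie outside it.

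Among 119 genes of the lists that were tested, the pattern over the 4 libraries most like that of *Runx2* was that of *Thbs2*, at a root mean square distance of 0.0584 between centred log2 CPM, and then that of *Hdac5*, at 0.0624. *Thbs2* encodes an anti-angiogenic matrix protein, and *Hdac5* a class IIa deacetylase that binds Runx2. For *Sox9* the nearest patterns were those of *Omd* (osteomodulin, 0.0533) and *Sox5* (0.0639). *Omd* had only 23 and 26 counts in WT against 15 and 16 in *Phf2* KO. The counting intervals of its log2 ratios, −1.44 to 0.60 and −1.59 to 0.36 within numbers 1 and 2, were far wider than its distance to *Sox9*. With 4 libraries these distances describe the data and were not tested.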

How the data were processed

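RNA-seq of 2 WT and 2 *Phf2* KO libraries of MEFs was analysed. Before deposit, the authors used Trim Galore for trimming and bowtie2 against rRNA, mapped the rest to mm9 with STAR, set as reverse stranded, and assigned them to genes with featureCounts. The deposited values are whole-number counts per gene symbol without normalization. Versions, gene annotation and the strand setting of featureCounts are not given in the sources used here. The authors' own DESeq2 table (fold changes, their errors, p-values) was not used. The members and lists were chosen with earlier results of these data known.

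The quasi-likelihood test of edgeR 4.0.16 (R 4.3.3; filterByExpr, TMM, glmQLFit, glmQLFTest) compared the genotypes, and p-values were adjusted over the 13668 genes tested by Benjamini-Hochberg, with 0.1 as the threshold. The study calls the replicates biological. The labels do not tie them to embryos, so p-values measure the spread between these libraries, whatever its source. Log2 ratios within a replicate number carry exact conditional 95% counting intervals and no test. Alternatives were a fit in DESeq2 1.42.0, edgeR with RLE size factors or with library size alone, no filter beyond 1 count per gene, the replicate block, and fits without each library. The script was tested on data simulated from the counts. No difference between replicate numbers was simulated, so that check does not cover how the fits handle the difference seen here.

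All 166 symbols of the lists were found, 2 through synonyms (*Cnmd* as *Lect1*, *Snorc* as *3110079O15Rik*). Positions and union exon lengths came from GENCODE on NCBIM37 (mm9). Genes named are the members, their relatives and, in each list, up to 3 genes with the largest log2 ratio of the same sign in both replicate numbers and a mean count of at least 50, the highest per kb, and the 2 nearest patterns to *Runx2* and *Sox9* (log2 of CPM plus 0.1). The genes of other lists with an unadjusted p under 0.05, the osteocyte genes, *Spp1*, *Col1a1*, *Tnmd* and *Dkk2* were named after their values were seen. In the lists, 1 further gene was left out and is not reported here. Marker lists named here are fibroblast, macrophage, osteoclast, muscle, endothelial, adipocyte and epithelial. Figures used Python 3.11.15, pandas 2.3.3, SciPy 1.17.1 and Matplotlib 3.10.9.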

Additional observations from a re-analysis of the deposited data

Results flagged for a closer look

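*Col10a1*, the collagen of hypertrophic cartilage and a gene that Runx2 can activate, moved in opposite directions in the 2 replicate numbers. Its counts were 212 (WT) and 562 (*Phf2* KO) in number 1, and 2779 (WT) and 2038 (*Phf2* KO) in number 2. The log2 ratio of *Phf2* KO to WT was 1.62 in number 1 and −0.34 in number 2, a difference of 1.96. With 1 library of each genotype in a number, the difference itself was not tested. The fit with the replicate block called *Col10a1* higher all the same (log2 fold change 0.38, edgeR quasi-likelihood test, adjusted p = 0.00159). The size asked of each ratio, 0.3 on the log2 scale, was set after the data were seen. Exons of *Col10a1* overlap those of *Nt5dc1* on the opposite strand.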

How the results depend on the processing

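DESeq2, its size factors, library size alone and all genes with at least 1 count kept the direction of the 5 tested members and called none of them. The unadjusted p of *Sox9* rose above 0.05 with DESeq2 (Wald test, 0.102) and with all genes of at least 1 count (edgeR quasi-likelihood test, 0.0510). It stayed below with the size factors of DESeq2 (0.0467) and library size alone (0.0419), in the same edgeR test. The number of genes called was 1 in the reported fit, 64 with DESeq2 (10 higher, 54 lower), 1500 with the replicate block (789 higher, 711 lower), and between 0 and 0 with a library left out, with every library needed for the call of *Dkk2*. With the replicate block 1 member was called, *Sox9*, at −0.45. The block changed no other member's call, left 1 residual degree of freedom, and lowered the common dispersion from 0.0451 to 0.00363. The replicate differences in WT and *Phf2* KO correlated across 13668 genes (Pearson's r = 0.776; genes are not independent replicates). *Xist* was counted 10042 times in WT replicate 1 and 8336 times in *Phf2* KO replicate 1, against 3 and 12 times in replicates 2. *Ddx3y* went the other way, at 6 (WT) and 10 (*Phf2* KO) in replicates 1 against 1271 and 1295 in replicates 2. The block thus follows a difference between the numbers that both genotypes share. These counts do not show that libraries of the same number came from the same embryo, and the labels do not say so.

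With a library left out, the log2 fold change lay between 0.09 and 0.38 for *Runx2*, −0.52 and −0.37 for *Sox9*, and −0.54 and −0.36 for *Sox5*. It lay between −0.13 and 0.10 for *Sox6*, which turned to 0.10 without WT replicate 1. It lay between −1.41 and 0.61 for *Comp*, which turned to 0.61 without WT replicate 2 and to 0.31 without *Phf2* KO replicate 1. In these fits the lone library of a group is assumed to vary like the other group. In the reported fit, which has no block, the median standard error over genes was 0.155 on the log2 scale. The median absolute log2 fold change was 0.122, so differences of the usual size are within the error of that fit. Its error includes the difference between the replicate numbers.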

Other observations

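Skeletal genes outside the members also followed the replicate number. *Spp1* (osteopontin), which osteoblasts and macrophages both express, had counts of 20331 (WT) and 17931 (*Phf2* KO) in replicates 1, against 5769 and 7187 in replicates 2. *Mgp*, an inhibitor of calcification in cartilage and vessel wall, went the other way, with counts of 4738 and 5194 in replicates 1 against 12722 and 11350 in replicates 2. Both genes were chosen after their values were seen.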
